A study of Mus musculus with 8 samples.

Results

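The genes described here carry out antigen presentation by major histocompatibility complex (MHC) class II molecules. They were chosen by name as *H2-Aa*, *H2-Ab1*, *H2-Eb1*, *Cd74*, *H2-DMa*, *H2-DMb1* and *Ciita*, and a probe set was used only where the array annotation gave it to 1 of them alone. Of the 7 genes, 6 had such probe sets, 14 in all among 45014 tested. Both probe sets that carry *H2-DMb1* also carry *H2-DMb2*, so *H2-DMb1* has no value here. For each gene the probe set with the highest mean over the 8 arrays was used, and the others served as a check. All values are log2 RMA values, on which a difference of 1 is a doubling of signal, and levels of different probe sets cannot be compared with each other.

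Bone marrow-derived macrophages (BMDM) were grown from the femoral marrow of C57Bl/6 mice, which was stored frozen, thawed and cultured for 7 days in medium with 15% L929-conditioned medium. There were 2 wild-type (WT) donors and 2 donors that lack miR-155 (miR-155-/-), and cells of each donor were stimulated for 24 h with LPS at 100 ng/ml or with LPS after IL-10 at 20 ng/ml, added 5 min earlier. This gave the groups WT(LPS), WT(LPS + IL-10), miR-155-/-(LPS) and miR-155-/-(LPS + IL-10), with 2 arrays each. All 4 groups received LPS, so no array shows unstimulated cells. By their labels the WT donors were female and the knockout donors male, so genotype and sex cannot be told apart. No further allele or agent is named for any group. The number of arrays limits the precision of every value.

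MHC class II molecules are pairs of an alpha and a beta chain that show peptides from the endosome to CD4+ T cells. Newly made pairs are held by the invariant chain, *Cd74*, and the H2-DM heterodimer exchanges the remnant of that chain for antigenic peptide. *Ciita* encodes the coactivator that switches on these genes together, through a set of promoter boxes bound by the RFX and NF-Y complexes. Interferon-gamma is known to raise class II in macrophages, and IL-10 is known for limiting their antigen presentation.

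The microRNA that the knockout lacks is given here in its mature form, since it defines the genotype, and the seed (bases 2 to 8) that pairs with target transcripts is in capitals. RefSeq places it on the plus strand of chromosome 16 (GRCm38.p6).
mmu-miR-155-5p: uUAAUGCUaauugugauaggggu
The table of RefSeq promoter windows used here, each of 300 bases (250 before the start and 50 after it), held 4 of the 7 genes, *H2-Aa*, *H2-Eb1*, *H2-DMb1* and *H2-DMa*. They were searched for GNAAC, the core of the X box, followed after 15 to 40 bases by TGATTGG, the Y box of NF-Y. The pair was found on the strand of the gene in the windows of *H2-Aa*, *H2-Eb1* and *H2-DMb1* and in neither window of *H2-DMa*. Among all 32851 windows, 0.332% held it on the strand of the gene and 0.715% on either strand. Of the other class II family genes with a window, *H2-Oa*, *H2-Ob* and *H2-Eb2* held the pair on their strand and *H2-DMb2* did not. All 6 stretches are printed 5′ to 3′ with both motifs in capitals. Such a pair belongs to the promoter boxes through which *Ciita* is known to act, and whether it acts at these 6 was not tested.
H2-Aa, chr17:34287857-34287914, minus strand: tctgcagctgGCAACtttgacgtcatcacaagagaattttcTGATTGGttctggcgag
H2-Eb1, chr17:34305766-34305822, plus strand: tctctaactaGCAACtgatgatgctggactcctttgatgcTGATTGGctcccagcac
H2-DMb1, chr17:34153087-34153144, plus strand: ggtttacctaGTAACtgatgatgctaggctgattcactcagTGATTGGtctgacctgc
H2-Oa, chr17:34092293-34092350, plus strand: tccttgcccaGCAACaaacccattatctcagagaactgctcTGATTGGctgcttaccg
H2-Ob, chr17:34238808-34238862, plus strand: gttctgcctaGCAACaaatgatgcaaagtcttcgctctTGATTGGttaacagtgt
H2-Eb2, chr17:34325533-34325589, plus strand: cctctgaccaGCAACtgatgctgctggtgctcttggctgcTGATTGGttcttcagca
The motifs lie 23 to 26 bases apart in these 6 stretches. Of the 3 neighbours, *H2-Eb2* was at 2.65 to 3.15 and *H2-Oa* at 3.18 to 5.09 over the 8 arrays, and neither was called in any comparison, while *H2-Ob* is described below with the region. All coordinates are of GRCm38.p6, and a match describes letters only.

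Both arrays of 1 donor stood apart from the rest in stromal markers. On both arrays of WT donor 1 the median of 13 fibroblast and stromal markers was 10.1, against 3.72 to 5.14 on the other 6 arrays. The main calls in comparisons that use this donor, and part of the values of the class II genes, are therefore also given without it. This leaves WT donor 2 as the only WT donor. It stood apart in *Ighm* and in the median of T and NK cell markers, as given below, and omitting both of its arrays was not tried. The median of 13 macrophage markers lay between 12.4 and 12.6 on all 8 arrays. As a guide to the level of an absent transcript, 9 probe sets of Y-linked genes lay between 1.36 and 2.62 on the 4 WT arrays. The host transcript of miR-155, *Mir155hg*, had values of 2.73 and 4.02 on the WT(LPS) arrays and 2.14 and 2.19 on the miR-155-/-(LPS) arrays. With IL-10 the WT values were 2.01 and 2.31 and the knockout values 1.70 and 2.00. Where its probes lie relative to the deletion was not stated, so it does not check the genotype.

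*H2-Aa*, the alpha chain of the I-A molecule (probe set 1435290_x_at), was read at 10.09 and 10.50 in WT(LPS) and at 9.14 and 9.71 in WT(LPS + IL-10), for donors 1 and 2 in turn here and below. In miR-155-/-(LPS) it was at 8.96 and 10.03, with 7.13 and 8.87 in miR-155-/-(LPS + IL-10). The IL-10 array was below its LPS array in each of the 4 donors, and miR-155-/- donor 1 was below donor 2 with either treatment, so that the highest miR-155-/-(LPS + IL-10) value did not reach the lowest of any other group.

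*H2-Ab1*, the beta chain of the same molecule (1450648_s_at), was read at 8.55 and 9.34 in WT(LPS) and at 8.10 and 8.45 in WT(LPS + IL-10). In miR-155-/-(LPS) it was at 10.44 and 10.66, and at 8.19 and 8.53 in miR-155-/-(LPS + IL-10). The miR-155-/-(LPS) arrays were apart from the other 6, whose values lay within 8.10 to 9.34, and the LPS + IL-10 arrays of both genotypes overlapped. 

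*H2-Eb1*, the beta chain of the I-E molecule (1417025_at), was read at 6.82 and 7.04 in WT(LPS) and at 6.89 and 7.32 in miR-155-/-(LPS). With IL-10 it was at 5.89 and 5.79 in WT cells and at 5.32 and 5.75 in miR-155-/- cells. All 4 arrays with IL-10 were below all 4 without it. C57BL/6 mice are known to make no I-E alpha chain, and *H2-Ea*, which encodes it, was at 2.37 to 2.86 on all arrays.

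*Cd74*, the invariant chain (1425519_a_at), was read at 11.91 and 11.84 in WT(LPS) and at 11.37 and 11.44 in WT(LPS + IL-10). It was at 10.17 and 11.22 in miR-155-/-(LPS) and at 9.47 and 10.69 in miR-155-/-(LPS + IL-10). All 4 miR-155-/- arrays were below all 4 WT arrays, and the WT donors differed by 0.0669 and 0.0713 with the 2 treatments where the miR-155-/- donors differed by 1.05 and 1.23.

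*H2-DMa*, the alpha chain of H2-DM (1422527_at), ranged over 0.43 log2 units, from 6.78 to 7.21. Within this range all 4 miR-155-/- arrays (7.09 to 7.21) were above all 4 WT arrays (6.78 to 7.06), the opposite direction to *Cd74*. The share of all probe sets separated completely by genotype or by IL-10 is not given. *Ciita* (1421210_at) ranged from 3.54 to 4.07, and its other 2 probe sets had means of 2.13 and 2.00, within the range of the Y-linked probe sets on WT arrays. By its brightest probe set *Ciita* was below the middle of the arrays, with 47.9% of all probe sets at a lower mean. In bulk RNA, fewer cells of a type and less RNA per cell cannot be told apart.

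**Figure D1:**
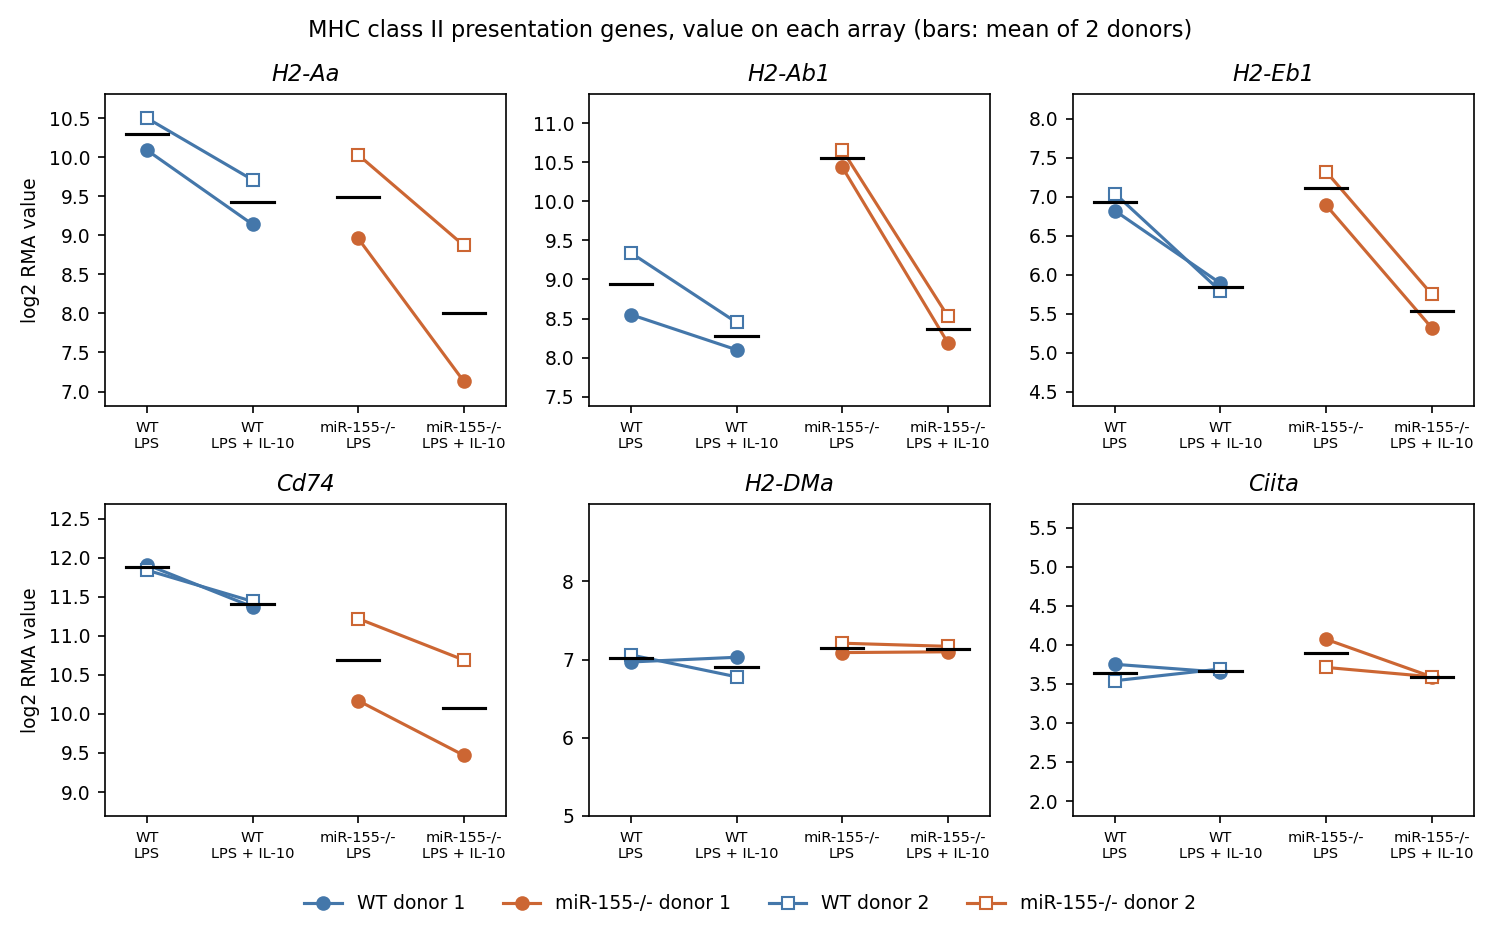
The log2 RMA value of each measured gene on each array (y axis, spanning 4 units in every panel) by group (x axis), with filled circles for donor 1, open squares for donor 2, lines joining the arrays of a donor and black bars at the mean of the 2 donors. *H2-Ab1* stands at 10.44 and 10.66 in miR-155-/-(LPS) against 8.55 and 9.34 in WT(LPS). *Cd74* is lower on every miR-155-/- array than on every WT array, and *H2-DMa* is higher, within a range of 0.43.

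The first question was what IL-10 did to these genes in LPS-stimulated cells. Over both genotypes, a comparison added after seeing the data, 2 of the 6 genes were called lower, both of them beta chains, and none was called higher. *H2-Ab1* fell by 1.43 ± 0.16 (SE, n = 4 donors), a 2.69-fold lower signal, and *H2-Eb1* by 1.33 ± 0.12, a 2.51-fold lower signal (adjusted p = 0.00784 and 0.0036 from limma with Benjamini-Hochberg adjustment over all probe sets, as throughout). Of all probe sets, 1.42% were called lower in this comparison. Both calls held without each of the 8 arrays in turn (adjusted p up to 0.0466 and 0.0307) and without both arrays of WT donor 1 (−1.54 and −1.41, adjusted p = 0.0104 and 0.019). *H2-Aa* differed by −1.18 ± 0.33 (adjusted p = 0.139) and *Cd74* by −0.54 ± 0.25 (adjusted p = 0.344), each lower with IL-10 in 4 of 4 donors. With the donor as a fixed block these 2 genes were also called lower (adjusted p = 0.00838 and 0.0429), where 794 of 45014 probe sets were, against 641 in the main fit. *H2-DMa* differed by −0.06 ± 0.09 and *Ciita* by −0.14 ± 0.10, with 2 and 3 of 4 donors lower. *H2-Ab1*, *H2-Eb1* and *H2-Aa* were selected by the rule of the study, an unadjusted p under 0.05 with a log2 fold change over 1 in size, against 0.729% of probe sets selected lower. The median of the 6 genes was −0.86, beside 0.00695 over all probe sets.

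In miR-155-/- BMDM alone the same 2 beta chains were called lower. *H2-Ab1* fell by 2.19 ± 0.23 (adjusted p = 0.00663), with changes of −2.24 and −2.13 in the 2 donors, and *H2-Eb1* by 1.57 ± 0.17 (adjusted p = 0.00759), with changes of −1.57 and −1.58. Of all probe sets 1.42% were called lower here too. Without miR-155-/-(LPS) replicate 1, miR-155-/-(LPS + IL-10) replicate 1 or miR-155-/-(LPS) replicate 2, neither passed (adjusted p from 0.0567 to 0.0713). *H2-Aa* differed by −1.50 ± 0.47, by −1.84 in donor 1 and −1.16 in donor 2 (adjusted p = 0.165, and 0.0121 with the donor as a fixed block). It was −0.78 without miR-155-/-(LPS + IL-10) replicate 1 and −2.22 without replicate 2 of that group, so that 1 array moved it by more than its SE. Such an omission leaves the other array of that donor without its pair, and the donors differed by 1.07 with LPS and 1.75 with LPS + IL-10. The values −0.78 and −2.22 therefore mix the difference between donors with the change by IL-10. Under the selection rule of the study *H2-Ab1*, *H2-Eb1* and *H2-Aa* were selected, against 1.42% of all probe sets selected lower. *Cd74* differed by −0.61 ± 0.35 (adjusted p = 0.441), with changes of −0.7 and −0.52 in donors 1 and 2. It was −0.15 and −1.07 without the same 2 arrays in turn. These values too mix in the difference between donors, which was 1.05 with LPS and 1.23 with LPS + IL-10.

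In WT BMDM none of the 6 genes passed, where 0.0311% of all probe sets did in either direction. By limma, 2 of the 6 had an unadjusted p under 0.05. The share of all probe sets at that level is not given, here or below, so such counts cannot be set against it. *H2-Eb1* was nearest, at −1.09 ± 0.17 (adjusted p = 0.127), with changes of −0.93 and −1.24 in the 2 donors. It was called when only probe sets with a mean of at least 6 were tested (adjusted p = 0.0136) and when an intensity trend with robust hyperparameters was fitted (adjusted p = 0.0305). These fits called 178 of 15434 and 121 of 45014 probe sets lower, against 10 of 45014 in the main fit. *H2-Eb1* was therefore called where calls rose over all probe sets. It was also the 1 gene selected by the rule of the study, against 0.355% of probe sets selected lower, and it was not selected without WT(LPS) replicate 2. *H2-Aa*, *H2-Ab1* and *Cd74* differed by −0.87 ± 0.47, −0.67 ± 0.23 and −0.47 ± 0.35 (adjusted p = 0.601, 0.466 and 0.703), each lower in 2 of 2 donors. *H2-Ab1* changed by −0.45 and −0.89 in donors 1 and 2. It was at −0.31 without WT(LPS) replicate 2 and at −1.03 without WT(LPS) replicate 1, omissions that each leave an array without its pair. From WT donor 2 alone, *H2-Eb1*, *H2-Ab1*, *H2-Aa* and *Cd74* differed by −1.24, −0.89, −0.79 and −0.40, each from 1 array against 1, which gives no spread within WT.

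Whether IL-10 acted differently in the 2 genotypes was tested as the difference of the changes. None of the 6 genes passed, against 0.0333% of all probe sets, and 1 of the 6 had an unadjusted p under 0.05. This was *H2-Ab1*, also the 1 gene selected (0.982% of probe sets were selected lower), whose change with IL-10 was larger in miR-155-/- by 1.51 ± 0.32 (log2 difference −1.51, 95% interval −2.28 to −0.75, unadjusted p = 0.00221, adjusted p = 0.285). It was −1.29 without WT donor 1 (adjusted p = 0.195). The fall of *H2-Ab1* and *H2-Eb1*, called in miR-155-/- and not in WT, is therefore not shown to differ between genotypes. For *H2-Eb1* the difference was −0.48 (95% interval −1.06 to 0.10), for *H2-Aa* −0.63 (−2.19 to 0.94) and for *Cd74* −0.15 (−1.32 to 1.03).

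**Figure D2:**
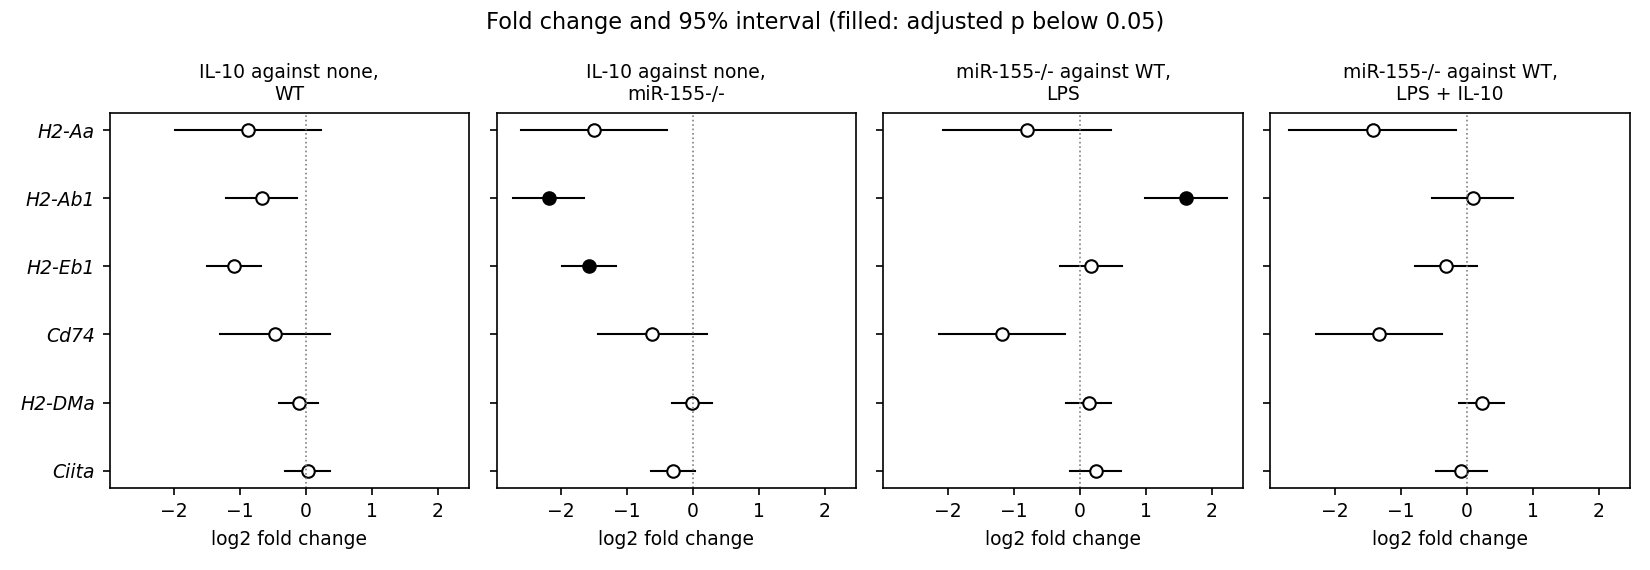
Log2 fold changes (x axis) of the 6 measured genes (y axis) in 4 comparisons, with bars for the 95% interval of limma and filled points where the adjusted p was below 0.05. The filled points are *H2-Ab1* and *H2-Eb1* for IL-10 in miR-155-/- (−2.19 and −1.57) and *H2-Ab1* for miR-155-/- against WT with LPS (1.60), and the intervals of *H2-Aa* and *Cd74* are the widest.

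The second question was how the genes differed between miR-155-/- and WT cells under LPS. Here *H2-Ab1* was higher in miR-155-/-(LPS), by 1.60 ± 0.26 (n = 2 against 2), a 3.04-fold higher signal (adjusted p = 0.0417), and the other 5 measured genes did not pass. Of all probe sets 0.951% were called higher and 0.513% lower. *Cd74* differed the other way, by −1.18 ± 0.40 (unadjusted p = 0.022, adjusted p = 0.255), and *H2-Aa*, the partner chain of *H2-Ab1*, by −0.80 ± 0.54 (adjusted p = 0.581). *H2-Eb1*, *Ciita* and *H2-DMa* differed by 0.17 ± 0.20, 0.24 ± 0.16 and 0.13 ± 0.14. By the selection rule of the study *H2-Ab1* was selected higher and *Cd74* lower, against 1.52% and 0.997% of probe sets. Without WT donor 1, *Cd74* and *H2-Aa* differed by −1.15 and −1.004 (adjusted p = 0.477 and 0.637). The median of the 6 genes was 0.15, beside 0.02 over all probe sets, and it was 0.0491 without miR-155-/-(LPS) replicate 2 and 0.057 without WT(LPS) replicate 1. The miR-155-/-(LPS) arrays enter this comparison and that of IL-10 in miR-155-/- with opposite sign, so opposite directions of a gene in the 2 are not independent.

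The call of *H2-Ab1* in this comparison was close to its threshold. It was kept without WT(LPS) replicate 2 (1.96, adjusted p = 0.0473) and did not pass without any other single array, with adjusted p from 0.0697 to 0.214. Its size was 1.24 without WT(LPS) replicate 1. Without both arrays of WT donor 1, the donor with stromal markers, it was 1.21 (adjusted p = 0.1), and with only the 4 arrays compared the adjusted p was 0.15. Its other 2 probe sets gave 1.33 (adjusted p = 0.0228) and 1.35 (adjusted p = 0.0522).

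With LPS + IL-10 no difference between the genotypes passed in any of the 6 genes, against 0.0711% of all probe sets, and 2 of the 6 had an unadjusted p under 0.05. *H2-Ab1* differed by 0.09 (95% interval −0.53 to 0.71). *H2-Aa* differed by −1.42 ± 0.54 (adjusted p = 0.513) and *Cd74* by −1.33 ± 0.40 (adjusted p = 0.397). Both were selected by the rule of the study, against 0.553% of probe sets selected lower, and neither was without WT(LPS + IL-10) replicate 2, without miR-155-/-(LPS + IL-10) replicate 1 or without both arrays of WT donor 1 (*H2-Aa* −1.71 and *Cd74* −1.36, adjusted p = 0.317 and 0.311). Over both treatments together, *Cd74* differed by −1.25 ± 0.32 (adjusted p = 0.148), *H2-Aa* by −1.11 ± 0.42 (adjusted p = 0.356) and *H2-Ab1* by 0.85 ± 0.21 (adjusted p = 0.133). No gene passed there, where 1.17% of all probe sets did, and 3 had an unadjusted p under 0.05. *H2-Aa* and *Cd74* were selected, against 0.671% of probe sets selected lower. The 3 values without WT donor 1 were −1.25, −1.36 and 0.56 (adjusted p = 0.295, 0.363 and 0.22).

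Under LPS the fitted values in miR-155-/- of the 2 chains of I-A lay on opposite sides of WT, with that of *H2-Aa* not passing the test. This was followed as the log2 ratio of their signals on each array, which can be compared between arrays but has no absolute meaning. *H2-Ab1* relative to *H2-Aa* was at 1.47 and 0.62 in miR-155-/-(LPS) against −1.54 and −1.16 in WT(LPS), a difference of 2.40. In the LPS + IL-10 groups it was at 1.07 and −0.35 against −1.04 and −1.26, a difference of 1.51. The genotypes did not overlap with either treatment, and both miR-155-/- donors were also above WT donor 2 alone. Under LPS each chain already separated the genotypes, in opposite directions, so the separation of their ratio there was fixed in advance and is no further support. An exact two-sided permutation test of 2 against 2 arrays gives p = 0.333 for each. This is the smallest p this design allows, so the test cannot decide whether the ratio differs. *H2-Aa* relative to *Cd74* was at −1.21 and −1.18 in miR-155-/-(LPS) and at −1.81 and −1.34 in WT(LPS), a difference of 0.38.

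**Figure D3:**
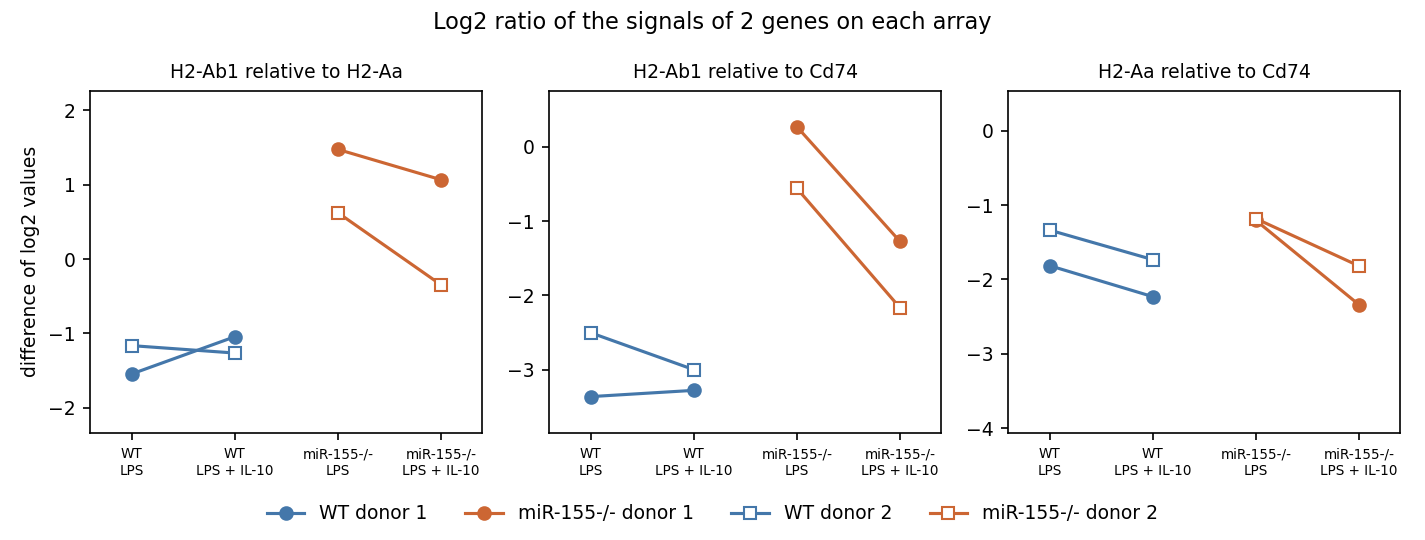
The difference of log2 values of 2 genes on each array (y axis, spanning 4.6 units in every panel) by group (x axis), with filled circles for donor 1, open squares for donor 2 and lines joining the arrays of a donor. *H2-Ab1* relative to *H2-Aa* is at or above −0.35 on every miR-155-/- array and at or below −1.04 on every WT array, and the ratio of *H2-Aa* to *Cd74* overlaps between genotypes with LPS + IL-10.

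The further probe sets of each gene bear on how far these patterns belong to the gene. All 3 probe sets of *H2-Ab1* (means 9.03, 7.61 and 6.29) were highest on the miR-155-/-(LPS) arrays, and all 3 were called lower with IL-10 in miR-155-/- (−2.19, −1.83 and −1.57, adjusted p up to 0.0148). Of the 4 probe sets of *H2-Aa*, the 3 with means of 9.31, 7.77 and 7.10 were lower with IL-10 in 4 of 4 donors. They differed between miR-155-/-(LPS) and WT(LPS) by −0.80, −0.45 and −1.01, none of them called, and the fourth lay near the lowest signals with a mean of 2.19. The second probe set of *H2-DMa* (mean 4.29) gave 0.13 for the same comparison. In the naming of these arrays, the endings _s_at and _x_at mark probes that can match more than 1 transcript. All 4 probe sets of *H2-Aa* have such an ending, so its further probe sets share this limit. Of the 3 of *H2-Ab1*, all but that with a mean of 7.61 have one, the brightest included. Part of the signal of such probe sets may come from related genes, which was not tested. *H2-Eb1* and *Cd74* had 1 probe set each.

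**Figure D4:**
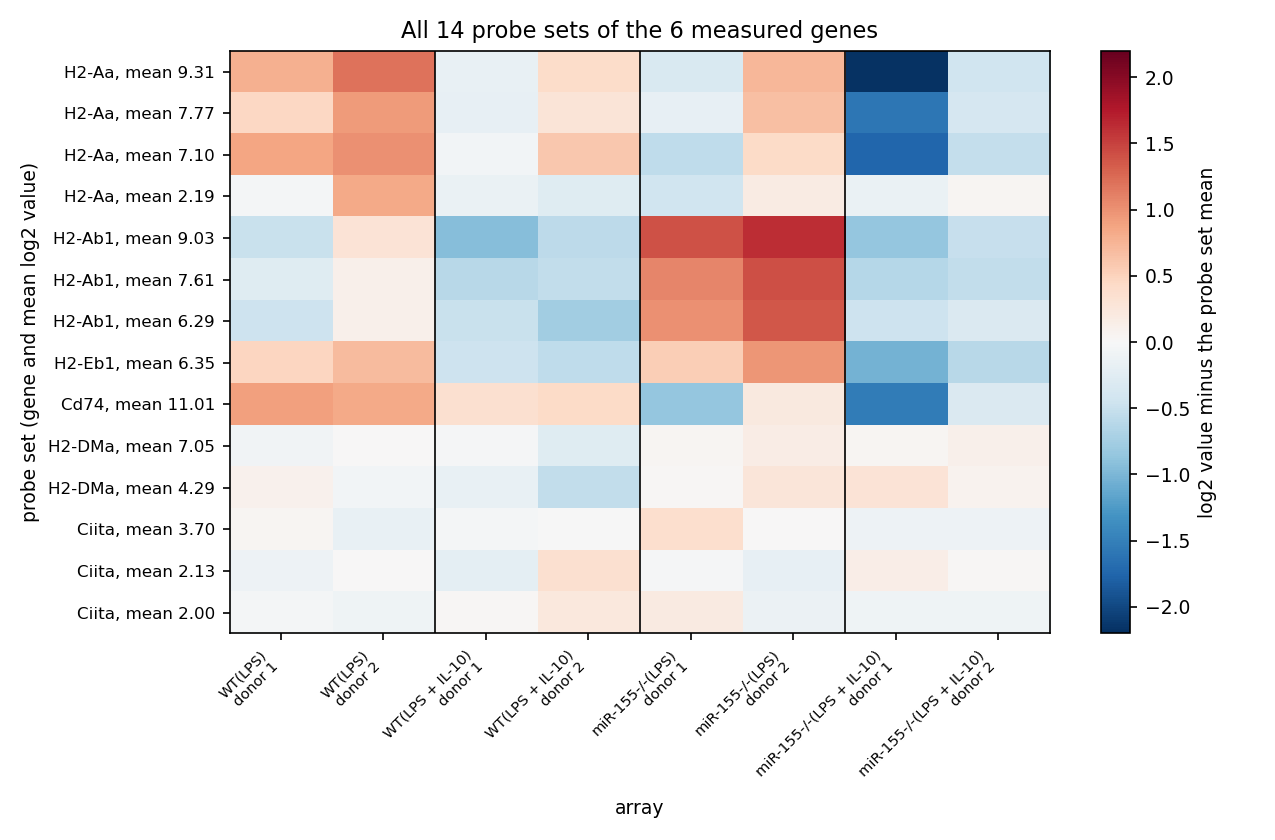
The log2 value of each of the 14 probe sets (rows, named by gene and mean) on each array (columns) minus the mean of that probe set over the 8 arrays, with red above and blue below that mean and black lines between groups. The 3 probe sets of *H2-Ab1* are highest in miR-155-/-(LPS), and 3 of the 4 of *H2-Aa* are lowest on miR-155-/-(LPS + IL-10) donor 1.

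Of the genes described, *Cd74* lies on chromosome 18 and *Ciita* on chromosome 16. The others lie close together on chromosome 17 with genes of class I peptide loading, which allowed neighbours to be read in the same comparison. From *H2-Oa* to *H2-Ea* the RefSeq order held 16 genes, of which 14 had a probe set of their own. Against 0.951% and 0.513% of all probe sets, 4 of these genes were called higher and none lower in the miR-155-/- cells under LPS. These were *H2-Ob*, the beta chain of the H2-DO modulator of H2-DM (2.91 ± 0.26, adjusted p = 0.00644), the peptide transporter subunit *Tap1* (1.51 ± 0.20, adjusted p = 0.0221), the immunoproteasome subunit *Psmb9* (1.16 ± 0.17, adjusted p = 0.0276) and *H2-Ab1*. *H2-Ob* was at 5.84 and 5.56 in miR-155-/-(LPS) and between 2.34 and 3.35 on the other 6 arrays, and those values reach into the range of the Y-linked probe sets. With IL-10 in miR-155-/-, 5 of the 14 were called lower and none higher, against 1.42% and 1.26% of all probe sets. The 5 were *H2-Ob* (−2.52 ± 0.23, adjusted p = 0.00438), *H2-Ab1*, *H2-Eb1*, *Tap1* (−1.28 ± 0.18, adjusted p = 0.0165) and *Tap2* (−0.92 ± 0.15, adjusted p = 0.0275). *H2-Aa*, between *H2-Ab1* and *H2-Eb1*, was not called in either comparison. With single arrays omitted, the calls between genotypes passed in 6 of 8 omissions for *H2-Ob* and in 2 of 8 for *Tap1* and for *Psmb9* (adjusted p up to 0.0763, 0.167 and 0.198). Those for IL-10 passed in 7 of 8 for *H2-Ob*, 4 of 8 for *Tap1* and 0 of 8 for *Tap2* (up to 0.0606, 0.148 and 0.205). Without WT donor 1 the difference between genotypes was 2.77 for *H2-Ob* (adjusted p = 0.0218), and *Tap1* (1.28, adjusted p = 0.0806) and *Psmb9* (1.16, adjusted p = 0.107) did not pass.

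**Figure D5:**
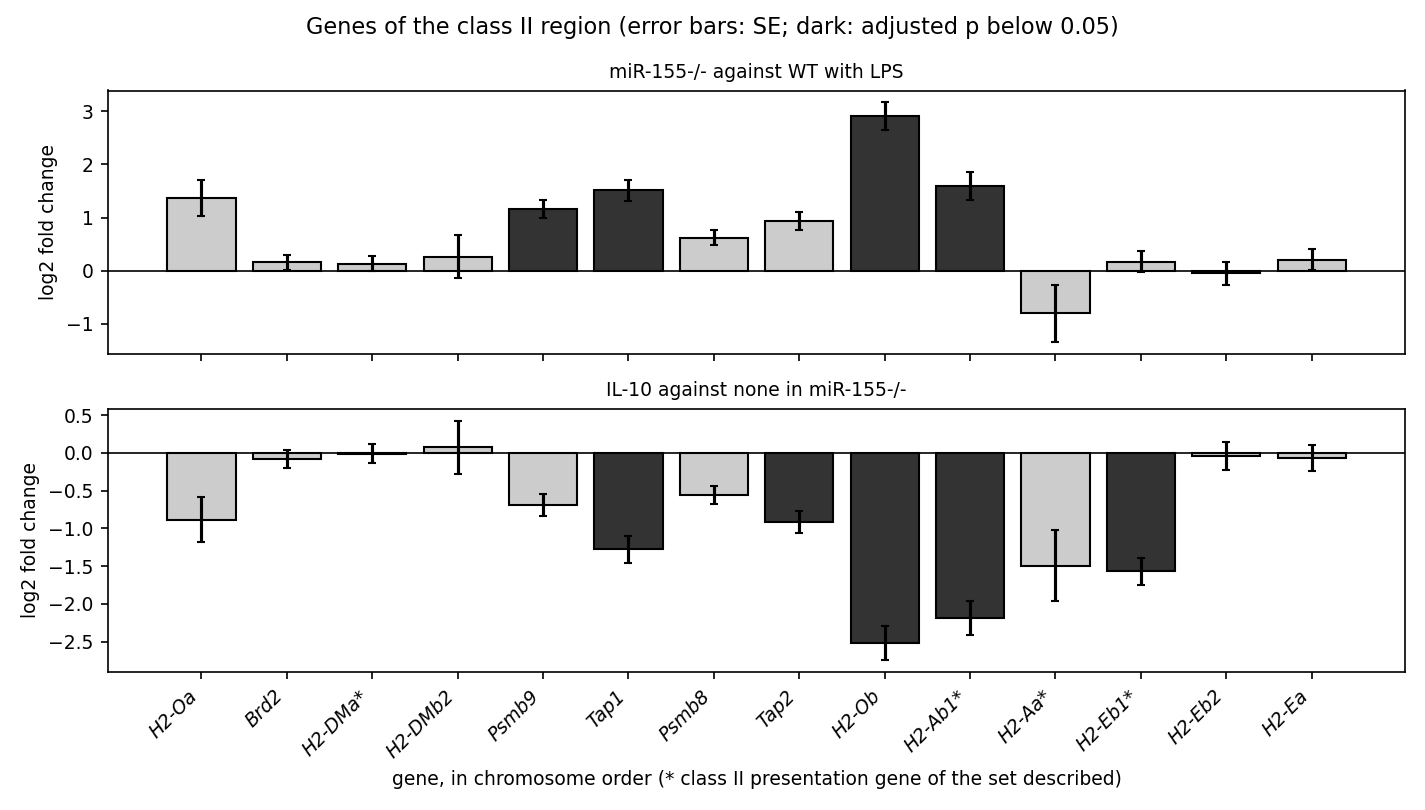
Log2 fold changes (y axis, with SE) of the 14 genes from *H2-Oa* to *H2-Ea* that had a probe set of their own, in chromosome order and not to scale (x axis), for miR-155-/- against WT with LPS (above) and for IL-10 in miR-155-/- (below). Dark bars passed an adjusted p of 0.05 and an asterisk marks the genes of the set described. *H2-Ob*, *H2-Ab1* and *Tap1* are dark in both panels, which share the miR-155-/-(LPS) arrays with opposite sign, so that opposite directions are not independent, and *H2-Aa* is below 0 in both.

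Other parts of the pathway were read from lists of genes, each on its brightest probe set. Of the promoter factors that act with *Ciita* (the RFX and NF-Y subunits, CREB and histone acetyltransferases), none of 10 passed in any comparison by limma. Under LPS, *Rfx5*, the DNA-binding RFX subunit, differed by 0.82 ± 0.19 (adjusted p = 0.106) and *Creb1* by 0.54 ± 0.12 (adjusted p = 0.101) between miR-155-/- and WT, and 2 of the 10 had an unadjusted p under 0.05. Of 9 genes of the interferon-gamma route that induces *Ciita*, *Jak2*, a kinase of the receptor, was called higher in miR-155-/-(LPS), by 1.27 ± 0.17 (adjusted p = 0.0231). Of all probe sets 0.951% were called higher there. With IL-10 in miR-155-/- *Jak2* was called lower, at −0.86 ± 0.15 (adjusted p = 0.0355), against 1.42% of all probe sets. The first call was lost in most omissions of a single array and the second in some. The first value was 1.13 without WT donor 1 (adjusted p = 0.071). *Jak2* was at 11.70 and 11.63 in miR-155-/-(LPS) and between 10.26 and 10.85 elsewhere, while *Jak1*, also of this list, was at 9.73 to 9.92 on all arrays. *Ifng* itself was at 1.51 to 1.84 on all arrays, within the range of the Y-linked probe sets. None of 4 repressors of *Ciita* passed in any comparison by limma, where 2 had an unadjusted p under 0.05 under LPS, and *Prdm1*, one of them, was at 9.10 and 9.03 in miR-155-/-(LPS) and at 8.19 and 8.83 in WT(LPS).

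Of 12 genes listed for endosomal antigen processing, not all of them proteases, none passed in any comparison by limma. Of the 12, 4 had an unadjusted p under 0.05 between the genotypes under LPS, all lower in miR-155-/-, and 4 for IL-10 over both genotypes, all higher with IL-10. The share of all probe sets at that level is not given. The medians of the 12 were 0.10 for IL-10 over both genotypes and −0.07 for miR-155-/- against WT with LPS, beside −0.86 and 0.15 for the 6 class II genes. *Ctss*, the protease that trims the invariant chain, was at 13.29 to 13.42 on all arrays. *Lgmn*, asparaginyl endopeptidase, was at 10.45 and 10.49 in miR-155-/-(LPS) and at 11.50 and 11.01 in WT(LPS), a difference of −0.78 ± 0.18 (adjusted p = 0.0968), and *Mr1* differed by −0.90 ± 0.19 (adjusted p = 0.0815). Among 8 genes of class II traffic and turnover, 2 fell with IL-10 over both genotypes, where 1.42% of all probe sets were called lower. *Cd83*, a surface protein known to stabilise class II against ubiquitination, fell by 0.86 ± 0.17 (adjusted p = 0.0485), and the tetraspanin *Cd82* by 0.81 ± 0.11 (adjusted p = 0.0152). *Cd83* did not pass without any of the 8 arrays (adjusted p 0.0629 to 0.198) and *Cd82* passed without 2 of them. They were at −1.03 and −0.87 without WT donor 1 (adjusted p = 0.0522 and 0.0342). *Marchf1*, the ligase that tags class II, ranged from 10.94 to 11.48.

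Of 13 genes of class I and its loading, *Tap1* and *Psmb9* were higher in miR-155-/-(LPS), where 0.951% of all probe sets were called higher. With IL-10 over both genotypes *Tap1*, *Tap2* and *Psmb8* fell, by 1.00 ± 0.12, 0.55 ± 0.10 and 0.53 ± 0.09 (adjusted p = 0.011, 0.0443 and 0.0282), against 1.42% of all probe sets called lower. The class I heavy chains *H2-K1* and *H2-D1* lay between 12.25 and 13.02 on all arrays and did not pass. *Tap2* did not pass without any single array and *Psmb8* passed without 1 of the 8, while *Tap1* passed without 5. Without WT donor 1, *Tap1* and *Psmb8* passed (adjusted p = 0.0207 and 0.0455) and *Tap2* did not (0.0781).

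Because other cells in the culture could carry class II, their markers were read beside these results. Of 12 B cell markers, 7 stayed below 3.61 (1 unit above the 95th percentile of the Y-linked probe sets) on every array, *Cd79a* and *Pax5* lay at 3.23 to 4.15 and 2.52 to 2.78, and *Ighm* was at 7.87 and 7.85 on the arrays of WT donor 2 and at 4.90 to 5.54 on the others. *Ebf1* was at 7.71 and 7.98 on the arrays of WT donor 1, the donor with stromal markers, and at 1.99 to 2.82 on the others. *Cd22* lay at 5.00 to 6.51, with differences of 0.51 for IL-10 in WT and −0.53 in miR-155-/- (unadjusted p = 0.0479 and 0.0442, adjusted p = 0.535 and 0.274). Of 13 dendritic cell markers, 6 stayed below that level, among them *Flt3* and *Xcr1*. The largest difference in the list was that of the actin bundler *Fscn1* with IL-10 in miR-155-/-, at −3.37 ± 1.06 (unadjusted p = 0.0152, adjusted p = 0.166). It was at 9.67 and 9.63 in miR-155-/-(LPS) and at 5.73 and 6.83 with IL-10 added. In WT donor 1 it was at 10.43 and 10.72 without and with IL-10, and in WT donor 2 at 7.69 and 6.73. *Ccr7*, at 1.75 to 2.55 on all arrays, differed with IL-10 by −0.55 in WT and −0.43 in miR-155-/- (unadjusted p = 0.0139 and 0.039, adjusted p = 0.419 and 0.257). *Itgax* (CD11c), which activated macrophages also carry, fell with IL-10 by 1.28 ± 0.21 over both genotypes (adjusted p = 0.0298). It was the 1 of the 13 that passed in any comparison, and this call was lost in most omissions of a single array. Its log2 fold change was −1.50 to −1.06 over these omissions and −1.41 without WT donor 1. Without IL-10 its values were 6.31 and 7.28 in WT and 6.44 and 7.07 in miR-155-/- cells, and with IL-10 they were 5.31 and 5.75 and 5.53 and 5.41, so that all arrays with IL-10 lay below all without it, as for *H2-Eb1*. The part of such cells in the class II results was not tested. Of 13 stromal markers, *Lum* was called, higher in miR-155-/-(LPS) by 2.57 ± 0.28 (adjusted p = 0.0125, and 0.0813 without WT donor 1), while the median of the 13 was −2.63. Of 9 T and NK cell markers none passed in any comparison by limma, with at most 1 at an unadjusted p under 0.05 in each, and their median was 3.43 and 3.32 on the arrays of WT donor 2 and 2.34 to 2.62 elsewhere.

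Among the 13 macrophage markers, 3 were called between miR-155-/-(LPS) and WT(LPS), where 0.951% of all probe sets were called higher and 0.513% lower. The mannose receptor *Mrc1* was lower by −2.71 ± 0.28 (adjusted p = 0.0101), as was the haemoglobin scavenger receptor *Cd163* (−1.66 ± 0.29, adjusted p = 0.0491), and the fractalkine receptor *Cx3cr1* was higher by 2.70 ± 0.35 (adjusted p = 0.0204). All 3 were called in the opposite direction with IL-10 in miR-155-/- (2.68, 1.69 and −1.85, adjusted p = 0.00441, 0.0215 and 0.0302), where 1.26% of all probe sets were called higher and 1.42% lower. *Cd163* between the genotypes did not pass without any single array, and *Cx3cr1* passed without 2 of them in each comparison. Without WT donor 1, *Cx3cr1* passed between the genotypes (adjusted p = 0.0324), and *Mrc1* and *Cd163* did not (0.072 and 0.157). These comparisons share the miR-155-/-(LPS) arrays. The general markers *Adgre1* and *Csf1r* lay between 12.72 and 12.90 and between 13.09 and 13.46 on all arrays.

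The genes whose pattern over the 8 arrays was most like the mean of the 5 class II genes with a mean of at least 6 were *Upp1*, uridine phosphorylase, *Cmklr1*, the chemerin receptor, *Cd80*, the costimulatory ligand of CD28, *Pram1* and *Phlda1*, out of 8480 genes. The root mean square difference of their centred values from that mean was 0.139, 0.243, 0.262, 0.265 and 0.280 log2 units, where the mean itself varied by 0.554. *Cd80* was also the nearest to *H2-Eb1* alone (0.227), followed by *Itgax* (0.299). The nearest to *H2-Ab1* were *U90926* (0.208) and the bacterial sensor *Nod1* (0.262), and the nearest to *Cd74* was *Csf3* (0.309). Between class II genes the same measure was 0.413 between *H2-Aa* and *Cd74*, 0.561 between *H2-Ab1* and *H2-Eb1* and 1.10 between the I-A chains *H2-Aa* and *H2-Ab1*. These values describe likeness over 8 arrays of 4 donors and carry no test.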

How the data were processed

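RNA of 8 BMDM cultures was amplified and labelled by the authors with NuGEN kits and hybridised to Affymetrix mouse arrays. The authors deposited log2 values from RMA (affy package), which corrects background, normalizes by quantiles and gives 1 value per probe set. They used limma. For neither tool was a version given in the sources used here. Of 45101 probe sets, 64 controls and 23 sex-linked ones were left out. Gene names came from the array annotation (34958 probe sets with 1 symbol, 932 with several, 9211 with none) and RefSeq of GRCm38.p6. All columns belonged to a sample.

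Tests used limma 3.58.1 in R 4.3.3 (lmFit, eBayes) on all 8 arrays, with a random block for the donor (duplicateCorrelation, 0.240), adjusted by the Benjamini-Hochberg method over 45014 probe sets and called at an adjusted p of 0.05. The labels give the donor, as genotype with replicate number, and arrays of a donor deviated together (r = 0.754 in WT and 0.230 in miR-155-/-). The comparisons were IL-10 in each genotype, genotype under each treatment and their difference, and 2 added after seeing the data, IL-10 over both genotypes and genotype over both treatments. All 7 genes are named, from other lists those called or at most the 2 with the smallest p, and 5 genes by likeness; other named values were chosen after they were seen. The members and 12 further lists were chosen with earlier results of these data known. Simulated data in which 200 probe sets changed served to test the scripts. Plots used Python 3.11.15 and matplotlib 3.10.9. RMA compresses changes of dim probe sets. Alternatives were fits with the donor as a fixed block or with no block, on the compared arrays alone, with array weights, and with a robust intensity trend. Others kept a mean of at least 6, centred arrays on medians, repeated quantile normalization, averaged the probe sets of a gene, or kept sex-linked probe sets. Single arrays, and both of WT donor 1, were also omitted. These omissions left 1 array in a group, or in both WT groups, so their p-values rest on the spread in the other groups. The main correlation was used where too few arrays remained to estimate it.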

Additional observations from a re-analysis of the deposited data

How the results depend on the processing

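The donor was also fitted as a fixed block (the replicate block, since arrays of a number and genotype share a donor). With it, 4 of the 6 genes were called lower with IL-10 over both genotypes in place of 2. *H2-Aa* (adjusted p = 0.00838) and *Cd74* (0.0429) were added, and *H2-Aa* was also called in miR-155-/- (0.0121). Of all probe sets, 794 were called lower over both genotypes in place of 641, and 861 in miR-155-/- in place of 638. This fit changed no other call of these genes for IL-10 or for the difference of its effects. Differences between genotypes cannot be estimated in it, so their calls were not tested this way. For IL-10 in WT, 1 gene was called with a mean of at least 6 or a robust intensity trend in place of 0. Calls of all probe sets rose too. They were 149 higher and 178 lower of 15434, and 123 higher and 121 lower of 45014, in place of 4 and 10. For genotype over both treatments, given below, the robust trend called 855 probe sets higher and 502 lower, in place of 347 and 178. For miR-155-/- against WT with LPS, 0 genes were called with no block, on the compared arrays alone or without WT donor 1, in place of 1, and 1 was selected by the rule of the study with the robust trend or without WT donor 1, in place of 2. With LPS + IL-10, 1 was selected on the compared arrays alone, with the robust trend, with array weights or over the mean of probe sets, and 0 without WT donor 1, in place of 2. Over both treatments, 1 was called with the robust trend in place of 0, and 1 was selected with the robust trend, with array weights, over the mean of probe sets or without WT donor 1, in place of 2. The median for IL-10 in miR-155-/- was −1.50 with a mean of at least 6, which drops *Ciita*, and −0.77 over the mean of probe sets, and that over both genotypes was −1.18 with a mean of at least 6. Signs turned for *H2-DMa* with IL-10 in miR-155-/- (0.0071 after a second quantile normalization, 0.0166 over the mean of probe sets), for *H2-Ab1* between genotypes with LPS + IL-10 (−0.0862 without WT donor 1), and for *Ciita* over the mean of probe sets (0.0191 for IL-10 and −0.0008 for genotype); none was called. The cause of these shifts was not tested.

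Without each of the 8 arrays in turn, genes called ranged from 0 to 1 for genotype with LPS and from 0 to 2 for IL-10 in miR-155-/-. Genes selected ranged from 0 to 2 for IL-10 in WT and for genotype with LPS + IL-10, and from 1 to 2 for genotype with LPS, for genotype over both treatments and for the difference. Medians ranged from −1.40 to −0.51 for IL-10 in miR-155-/-, −0.72 to −0.41 for IL-10 in WT, 0.0491 to 0.17 for genotype with LPS, −0.30 to −0.0934 for genotype with LPS + IL-10, −0.0454 to 0.0571 for genotype over both treatments, −0.62 to −0.0879 for the difference and −1.09 to −0.57 for IL-10 over both genotypes. Signs turned, always without a call, for *H2-DMa* with IL-10 in WT (−0.24 to 0.0274), in miR-155-/- (−0.0647 to 0.0375), over both (−0.13 to 0.0069) and in the difference (−0.041 to 0.23). They turned for *Ciita* with IL-10 in WT (−0.085 to 0.13) and for genotype over both treatments (−0.0102 to 0.17), for *H2-Ab1* for genotype with LPS + IL-10 (−0.0469 to 0.22), and for *H2-Eb1* for genotype over both (−0.15 to 0.0095). In the difference they turned for *H2-Aa* (−1.34 to 0.0929) and *Cd74* (−0.61 to 0.31). Over all settings, 711 values of single genes kept direction and side of the threshold, 16 lost and 8 gained a call and 20 turned sign. Of the calls of genes from the other lists, 354 were kept and 231 lost. With 2 donors a genotype, 1 array can decide a call, and the dim probe sets of *Ciita* limit what could be measured there.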
